A study of Mus musculus with 8 samples.

Results

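The 8 genes described here, Plin2, Pparg, Fabp4, Fabp5, Lpl, Pnpla2, Limch1 and Cd36, were chosen by name as lipid storage genes of lung lipofibroblasts and are described over all 8 libraries of the series. All 8 were found by symbol among the 43432 mouse Ensembl genes of the deposited count table. Of these 8, 7 held enough reads to be tested, and Fabp4 did not. The libraries are RNA-seq of lung myofibroblasts, the contractile and matrix-producing cells of the growing alveolar wall, from C57BL/6 mice at postnatal day 7. In the 4 control libraries the mice were wild type, and in the other 4 they were Fra-2 transgenic, with constitutive expression of Fra-2, a transcription factor of the AP-1 family that is encoded by Fosl2. The labels name no further allele, agent or treatment. The promoter of the transgene is not given in the sources used here, nor whether each library came from a separate animal. The p-values therefore reflect the variation among these 8 libraries, which may be technical.

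Lipofibroblasts are fibroblasts of the alveolar wall that keep neutral lipid in cytoplasmic droplets and are known for passing lipid to the alveolar epithelium, which uses it to make surfactant. Fatty acids reach such cells through lipoprotein lipase and CD36, travel in the cytosol on fatty acid binding proteins, are stored as triglyceride in droplets coated by perilipins, and are released again by adipose triglyceride lipase. The nuclear receptor PPAR-gamma switches on many of these genes, in lung fibroblasts as in fat cells.

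Fosl2, which checks the labels, did not separate the groups. It measured 105, 117, 141 and 119 CPM (the count scaled by the TMM-adjusted library size) in control 1 to 4 and 166, 134, 126 and 104 CPM in Fra-2 1 to 4. The log2 fold change of 0.14 (SE 0.136) did not pass (adjusted p = 0.888 by edgeR), and a two-sided exact permutation test of the CPM returned p = 0.457. With 4 libraries a side that test cannot go below 0.0286. The second group is therefore called Fra-2-labelled throughout. Total counts ran from 29926239 to 41335957 per library, and each group held 2 female and 2 male libraries by Xist and Y-linked genes. Control 1 stood apart: it was typed male but held 372 Xist reads, against 15 to 27 in the other 3 male libraries, and it was the lowest library in most of the marker lists of other lung cells given next.

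Markers of the labelled cell type were abundant, and 8 of 10 fat cell markers averaged under 1 CPM. The receptor gene Pdgfra, a marker of alveolar myofibroblasts, measured 1139 ± 156 CPM in control and 1243 ± 128 CPM in the Fra-2-labelled libraries (mean ± SD, n = 4), and Tgfbi, a matrix protein gene and the most abundant of 15 myofibroblast markers, measured 4646 ± 377 and 4239 ± 236 CPM. Of those 15 markers 2 rose (Actc1 and Stc1) and 1 fell (Enpp2) by edgeR, against 0.72% and 0.298% of all tested genes. The list summed to 19346 to 21608 CPM in control and 19178 to 21903 CPM in the Fra-2-labelled libraries. Of the fat cell markers, Lep (leptin) had no read in any library, Adipoq (adiponectin) had 0 to 17 reads per library, the droplet coat gene Plin1 0 to 14 and Cidec, which enlarges droplets, 1 to 26. Lpl (35.5 CPM in control and 38.3 CPM in the Fra-2-labelled libraries) and Lipe (12.6 and 14.8 CPM), also on that list, were higher. The label of lipofibroblast genes names where these 8 genes are known to act, and the libraries themselves carry the markers of myofibroblasts. Markers named for lipofibroblasts were read as well. Without Macf1, 14 of them summed to 419 to 946 CPM in control and 866 to 1302 CPM in the Fra-2-labelled libraries. In these bulk libraries, fewer cells that express a gene and less of its RNA per cell cannot be told apart.

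Other lung cells could also hold these 8 genes, since macrophages, endothelium and alveolar epithelium express several of them. Summed over 15 markers, macrophage genes measured 98.1 to 145 CPM in control and 128 to 163 CPM in the Fra-2-labelled libraries. Lyz2 (lysozyme) was the most abundant of them, and Siglecf, a marker of alveolar macrophages, had 0 to 31 reads. Summed over 14 endothelial markers the ranges were 313 to 385 and 384 to 457 CPM, most of it from Eng (endoglin, a co-receptor that mesenchymal cells also express), without which they were 82.1 to 118 and 104 to 122 CPM. Summed over 14 alveolar epithelial markers, led by the surfactant gene Sftpc, they were 56.7 to 138 and 116 to 217 CPM, with Fra-2 4 the highest. Summed over 7 erythroid markers, led by Hbb-bs, they were 17.9 to 151 and 19.7 to 80.6 CPM, and over 7 mesothelial markers, led by Upk3b, 3.95 to 9.54 and 7.20 to 14.1 CPM. The sum of 9 pericyte markers, led by Postn, was 3548 to 3939 and 3108 to 4094 CPM, and that of 10 fat cell markers 45.0 to 54.8 and 48.6 to 58.2 CPM, nearly all of it from Lpl and Lipe.

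**Figure D1:**
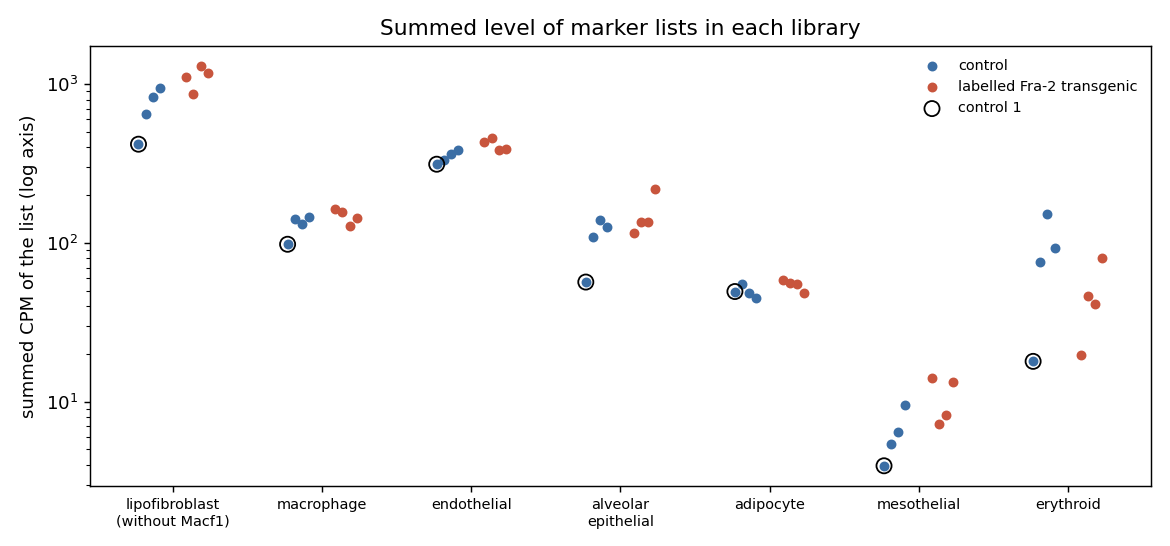
Summed CPM (log axis) of marker lists in each library, control in blue and Fra-2-labelled in red, with control 1 circled. Control 1 is the lowest control library for lipofibroblast (without Macf1), macrophage, endothelial, alveolar epithelial, mesothelial and erythroid markers and not for fat cell markers, and Fra-2 4 is the highest library for alveolar epithelial markers at 217 CPM.

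Per length, the 8 genes fell into an upper and a lower set. Levels between genes are given as control mean CPM per kb of exon, the union of all annotated exons of a gene. Plin2 (8.62 ± 1.52, SD, n = 4), Pnpla2 (8.30 ± 0.955) and Limch1 (6.57 ± 1.51) were the highest, and their ranges over the 4 control libraries overlapped, so their order is not resolved. Lpl followed at 3.39 ± 0.290 and Cd36 at 2.07 ± 0.797 CPM per kb, and neither overlapped with its neighbours, although Limch1 and Lpl did overlap when the longest principal transcript was taken as the length. Fabp5 (0.319 ± 0.0663) and Pparg (0.215 ± 0.131) came next and overlapped with each other, and Fabp4 was the lowest at 0.0369 ± 0.00855 CPM per kb. Over all 8 libraries, 74.7% of the tested genes had a lower level per kb than Plin2, 54.5% had a lower level than Lpl, 10.6% a lower level than Pparg and 0.228% a lower level than Fabp4. Fabp4 itself failed the read filter that the tested genes passed, so its low place among them was largely set by that filter. The droplet coat gene and the lipase genes were thus measured at moderate levels, while the nuclear receptor and both binding proteins were the 3 lowest of the 8 genes.

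**Figure D2:**
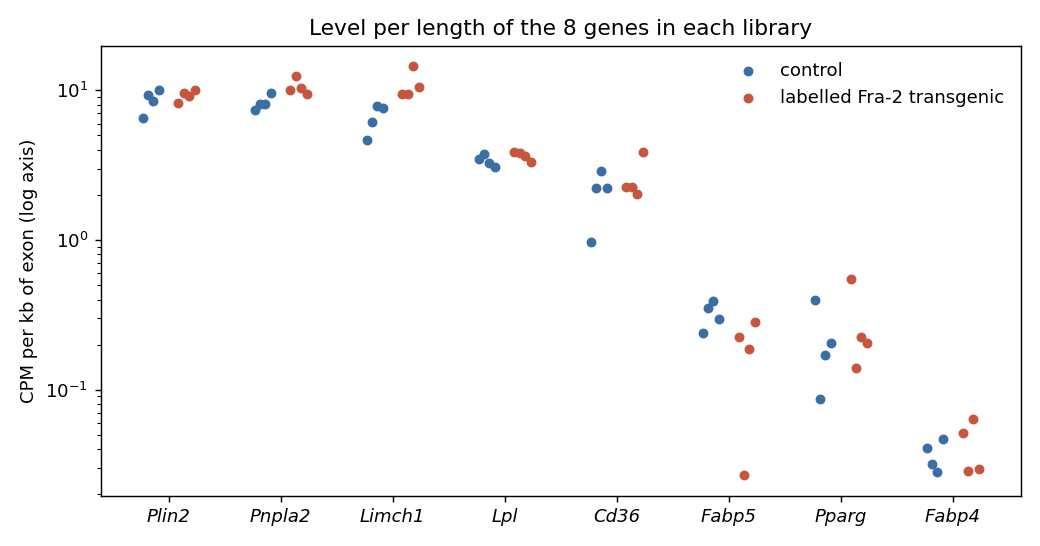
CPM per kb of exon (log axis) of each of the 8 genes in the 4 control libraries (blue) and the 4 Fra-2-labelled libraries (red). Plin2, Pnpla2 and Limch1 overlap at the top, and Fabp5, Pparg and Fabp4 lie below 1 CPM per kb in all 8 libraries.

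No member passed the test between the groups. Over all 15422 tested genes, 1.02% passed (edgeR's quasi-likelihood test, adjusted p under 0.05), and of the 7 tested members 0 rose and 0 fell. Without adjustment, 2 of the 7 had a p under 0.05, Limch1 and Pnpla2, both higher in the Fra-2-labelled libraries, against 5.17% of all tested genes in that direction and 8.71% in either. The groups did not overlap for 1 of the 7, Limch1, against 5.76% of all tested genes, with 3.35% above and 2.42% below control. DESeq2 called 369 of the 15422 genes, among them Limch1 and none of the other members. Of the 7 members, 6 had a log2 fold change above 0, as did 47.8% of all tested genes. The median was 0.34 over the members and -0.01 over all tested genes.

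**Figure D3:**
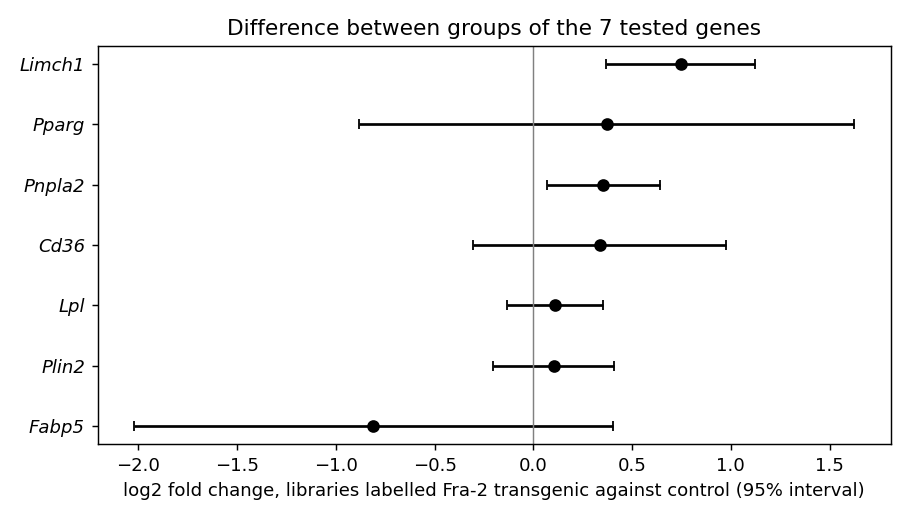
Log2 fold change (points) and 95% interval (bars) of the 7 tested genes, Fra-2-labelled libraries against control. The intervals of Limch1 (0.37 to 1.12) and Pnpla2 (0.07 to 0.64) lie above 0, and the other 5 include 0.

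Pparg (chr6:115360951-115490399, plus strand, GRCm38), which encodes the nuclear receptor PPAR-gamma and is the regulator among the 8 genes, was read 9 to 56 times per library. It measured 1.17, 0.257, 0.505 and 0.602 CPM in control 1 to 4 and 1.61, 0.414, 0.662 and 0.610 CPM in Fra-2 1 to 4. Control 1 and Fra-2 1 were the highest, and the groups overlapped. The log2 fold change of 0.37 (SE 0.585) did not pass (adjusted p = 0.940 by edgeR), and its 95% interval, a fold change of 0.542 to 3.09, spans both directions. Without Fra-2 1 the log2 fold change turned to -0.17. At this depth no difference in Pparg could be detected.

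Lpl (chr8:68880491-68907448, plus strand) encodes lipoprotein lipase, the secreted enzyme that frees fatty acids from the triglyceride of circulating lipoproteins. It measured 36.2, 39.4, 34.1 and 32.4 CPM in control and 40.6, 39.8, 38.3 and 34.6 CPM in the Fra-2-labelled libraries. The groups overlapped, with 2 of the 4 Fra-2-labelled libraries above the highest control library. The fold change was 1.08 with a 95% interval of 0.911 to 1.28 (edgeR adjusted p = 0.893), the narrowest interval among the members. A larger rise or fall of Lpl lay outside this interval. Of the stretches of 50 bases in its principal transcript, 4.11% also occur in other genes.

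Cd36 (chr5:17781690-17888801, minus strand), a membrane receptor for fatty acids and oxidised lipoproteins, measured 3.47, 8.01, 10.3 and 7.97 CPM in control and 8.10, 8.15, 7.28 and 13.9 CPM in the Fra-2-labelled libraries. Control 1 was the lowest library and Fra-2 4 the highest, and the other 6 lay between 7.28 and 10.3 CPM. The log2 fold change of 0.34 (SE 0.297) did not pass (adjusted p = 0.864 by edgeR), and leaving out 1 library at a time moved it between 0.08 (without Fra-2 4) and 0.54 (without control 3), with 0.10 without control 1. Control 1 and Fra-2 4 were also the libraries with the lowest and the highest summed alveolar epithelial markers (56.7 and 217 CPM). The part of other cells in the Cd36 values was not tested.

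The fatty acid binding proteins, which carry fatty acids through the cytosol, were barely read. Fabp4 (chr3:10204088-10208576, minus strand), the binding protein known from fat cells, macrophages and capillary endothelium, held 8, 5, 4 and 7 reads in control 1 to 4 and 8, 4, 9 and 5 reads in Fra-2 1 to 4, which is 0.126 to 0.284 CPM. It was not tested, and its counts overlapped between the groups. Fabp5 (chr3:10012548-10016607, plus strand), known from epithelial cells and macrophages, measured 0.849, 1.25, 1.39 and 1.05 CPM in control and 0.807, 0.0955, 0.662 and 1.01 CPM in the Fra-2-labelled libraries. It was the 1 member with a negative log2 fold change (-0.81, SE 0.566, edgeR adjusted p = 0.798). Fra-2 2 held 3 reads of it, where the other 7 libraries held 21 to 44, and without that library the log2 fold change was -0.45. Fabp5 has near-identical processed copies. Of the 938 stretches of 50 bases in its principal transcript, 21.1% also occur in 5 other annotated genes, whose rows held at most 5 reads in any library, so the Fabp5 count is uncertain if reads with several matches were discarded.

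Plin2 (chr4:86648386-86670060, minus strand) encodes perilipin 2, the coat protein of lipid droplets in most cells outside fat tissue. It measured 23.0, 32.7, 30.01 and 35.4 CPM in control and 29.1, 33.8, 31.98 and 35.1 CPM in the Fra-2-labelled libraries. Control 1 was the lowest, and the other 7 libraries lay between 29.1 and 35.4 CPM. The fold change was 1.07 with a 95% interval of 0.869 to 1.33 (edgeR adjusted p = 0.934). Without control 1 the log2 fold change was -0.01. Of the stretches of 50 bases in its principal transcript, 4.89% also occur in Gm12551, whose row held 0 to 6 reads per library.

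Pnpla2 (chr7:141455198-141460743, plus strand) encodes adipose triglyceride lipase, the enzyme that starts the breakdown of stored triglyceride. It measured 22.2, 24.5, 24.5 and 29.1 CPM in control and 30.4, 37.9, 31.2 and 28.7 CPM in the Fra-2-labelled libraries. All but Fra-2 4 lay above the highest control library, so the groups overlapped by that 1 library. The mean was 25.1 ± 2.88 and 32.03 ± 4.02 CPM (SD, n = 4), a fold change of 1.28 with a 95% interval of 1.05 to 1.56. The unadjusted p was 0.0189 and the edgeR adjusted p 0.399, and 4.73% of tested genes had a smaller p.

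Limch1 had the smallest p of the 7 tested members, and it was the only one whose groups did not overlap. Limch1 (chr5:66745827-67057158, plus strand) encodes a protein with LIM and calponin homology domains that binds actin and activates non-muscle myosin. It is no lipid enzyme, and it stands with these genes as a marker of alveolar fibroblasts. It measured 47.5, 62.9, 81.1 and 78.2 CPM in control and 97.7, 97.0, 148 and 109 CPM in the Fra-2-labelled libraries. Every Fra-2-labelled library lay above every control library, as for 3.35% of all tested genes, with control 1 the lowest and Fra-2 3 the highest. The mean was 67.4 ± 15.5 and 113 ± 24.2 CPM (SD, n = 4), a log2 fold change of 0.75 (SE 0.176), or a fold change of 1.68 with a 95% interval of 1.29 to 2.18. Limch1 ranked 189 of 15422 genes by p (unadjusted p = 0.000936) and missed the threshold after adjustment (edgeR adjusted p = 0.0764). It passed by DESeq2 (adjusted p = 0.00315) and with total-count scaling in edgeR (adjusted p = 0.0441). Leaving out 1 library at a time gave log2 fold changes of 0.59 to 0.85 with edgeR adjusted p of 0.0645 to 0.229. The gene overlaps the antisense genes Gm15949 and Gm15948 and the miRNA gene Gm23841 on the other strand, whose reads cannot be told from its own without strand. It also overlaps Gm6517, a processed pseudogene on the same strand.

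**Figure D4:**
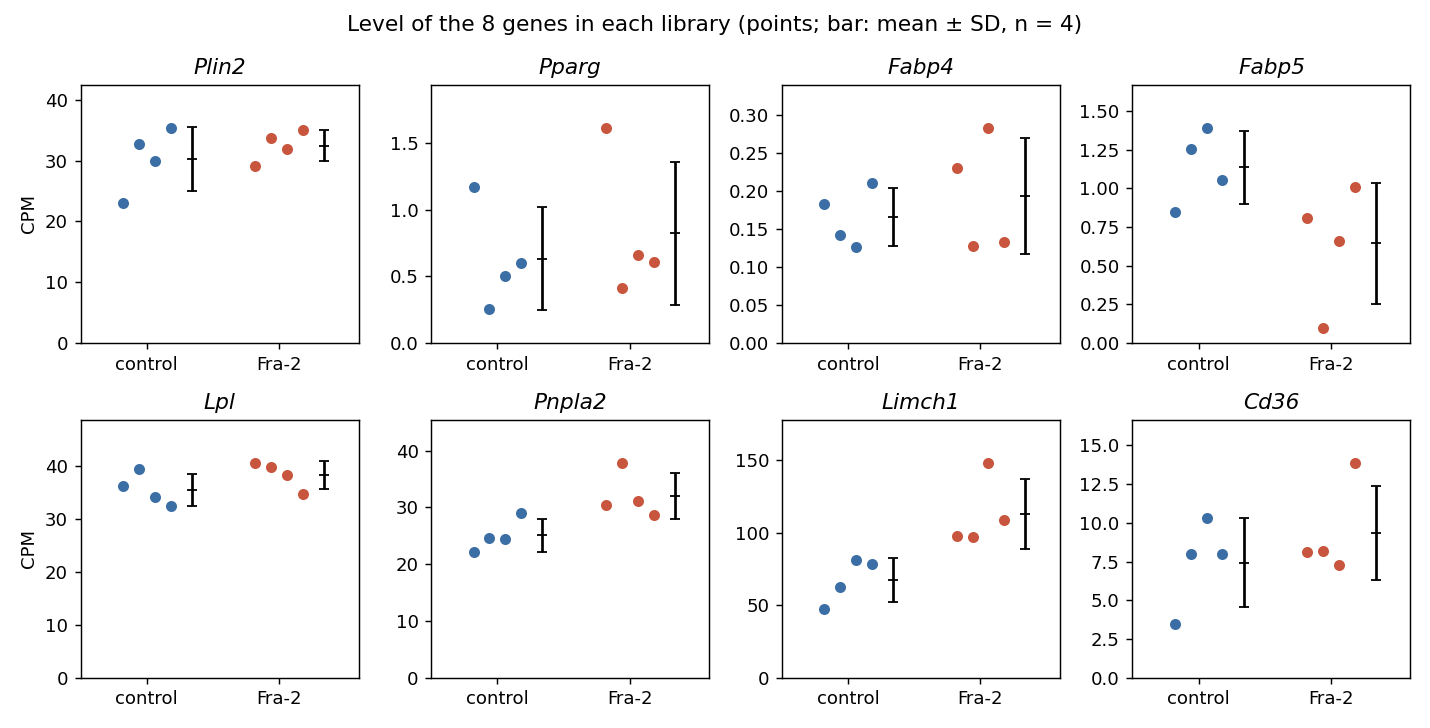
CPM of each of the 8 genes in every library, control in blue and Fra-2-labelled (Fra-2) in red, in the order 1 to 4 from left to right, with the mean and SD of each group as bars, on axes from 0 that differ between panels. Limch1 is the only panel in which the groups do not overlap (47.5 to 81.1 against 97.0 to 148 CPM).

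Of 15 markers named for lipofibroblasts and alveolar matrix fibroblasts, 0 rose and 0 fell (edgeR), against 0.72% and 0.298% of all tested genes. A log2 fold change above 0 was found for 14, against 47.8% of all tested genes. The groups did not overlap for 3, all upwards, against 3.35% of all tested genes. The list was chosen with earlier results of these data known. Their median log2 fold change was 0.49, beside 0.84 over the tested mesothelial markers, 0.31 over the alveolar epithelial, 0.17 over the endothelial and 0.12 over the myofibroblast markers. The integrin gene Itga8 measured 80.2 ± 21.8 and 165 ± 45.8 CPM (edgeR adjusted p = 0.077), and Npnt, which encodes its ligand nephronectin, 110 ± 39.1 and 193 ± 26.1 CPM (edgeR adjusted p = 0.209), while Tcf21, the transcription factor that marks lipofibroblast precursors, measured 15.3 ± 5.04 and 18.9 ± 3.69 CPM (edgeR adjusted p = 0.827). The full list summed to 1731 to 1944 CPM in control and 1903 to 2488 CPM in the Fra-2-labelled libraries, and the groups overlapped. Macf1, a cytoskeletal linker and the 1 gene of the list with a negative log2 fold change, made up much of that sum (1146 ± 145 and 1100 ± 62.7 CPM). Without it the list summed to 419, 645, 831 and 946 CPM in control 1 to 4 and 1113, 866, 1302 and 1173 CPM in Fra-2 1 to 4. Control 1 was the lowest here too, and the groups overlapped, with control 4 above Fra-2 2. Without control 1 the log2 fold change of Limch1 was 0.61 (edgeR adjusted p = 0.112). Whether the level of Limch1 follows the number of such cells was not tested.

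The 250 bases before a start site of Limch1, the member with the smallest p, and of the droplet genes Pnpla2 and Plin2 are shown here. Plin2 (edgeR adjusted p = 0.934) is set beside the pair with the smallest p, although no member passed. The stretches are RefSeq sequences of build GRCm38.p6, written 5′ to 3′ on the strand of the gene. Of the 8 genes 5 were matched in the RefSeq table, and Lpl, Fabp4 and Fabp5 were not. Limch1 has 3 RefSeq starts, which the gene counts do not tell apart, and the window of the second, which holds no annotated exon, is shown. The stretch right after this second start was not found whole in any annotated Limch1 transcript, unlike those after the first and the third. The stretch after the Pnpla2 start was likewise not found whole in its transcripts, and that after the Plin2 start was. The windows are chr5:66857219-66857468 (Limch1, plus strand), chr7:141454938-141455187 (Pnpla2, plus strand) and chr4:86670060-86670309 (Plin2, minus strand). Capitals mark every match, on either strand, to the GC box GGGCGG and the TATA box TATAAA.
Limch1: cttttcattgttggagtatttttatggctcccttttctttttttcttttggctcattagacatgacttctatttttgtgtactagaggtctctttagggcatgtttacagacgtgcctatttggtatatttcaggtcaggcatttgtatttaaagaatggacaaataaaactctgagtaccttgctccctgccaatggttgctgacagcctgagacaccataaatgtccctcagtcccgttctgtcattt
Pnpla2: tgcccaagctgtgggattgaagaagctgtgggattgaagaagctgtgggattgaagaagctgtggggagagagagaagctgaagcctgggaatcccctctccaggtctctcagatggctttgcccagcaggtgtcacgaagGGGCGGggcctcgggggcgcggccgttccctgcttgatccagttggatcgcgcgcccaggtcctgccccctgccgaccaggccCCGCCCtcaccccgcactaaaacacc
Plin2: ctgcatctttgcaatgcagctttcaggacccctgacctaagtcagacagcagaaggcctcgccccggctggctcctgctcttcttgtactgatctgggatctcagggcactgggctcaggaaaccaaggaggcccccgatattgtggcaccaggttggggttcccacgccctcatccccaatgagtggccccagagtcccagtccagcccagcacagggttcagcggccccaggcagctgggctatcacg
The second Limch1 start follows a stretch of 39.2% G and C with neither motif. The first, not printed, follows one of 74.4% with 3 GC boxes, and the third one of 47.2% with a TATA box. Pnpla2 has 2 GC boxes and Plin2 has neither motif. GC boxes occur in 32.7% and TATA boxes in 12.4% of all 32851 RefSeq windows of this length. The AP-1 motif TGANTCA, present in 6.75% of windows, the related motif TGACGTCA (1.55%) and the PPAR element known as DR1 (0.0335%) had no match on either strand in any of the 9 windows of Limch1, Pnpla2, Plin2, Pparg and Cd36, which says only that these letters are not there.

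The genes around these 8 in lipid handling were taken from 8 lists of 108 genes, of which 96 were tested. None passed in edgeR, with 0 higher and 0 lower, against 0.72% and 0.298% of all tested genes. At an unadjusted p under 0.05, 7 were higher and 1 was lower in the Fra-2-labelled libraries, against 5.17% and 3.53% of all tested genes. Of the 96, the groups did not overlap for 4 above control and 2 below, against 3.35% and 2.42% of all tested genes. The genes named below as without overlap are among these. The median log2 fold change over the 96 was 0.04.

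**Figure D5:**
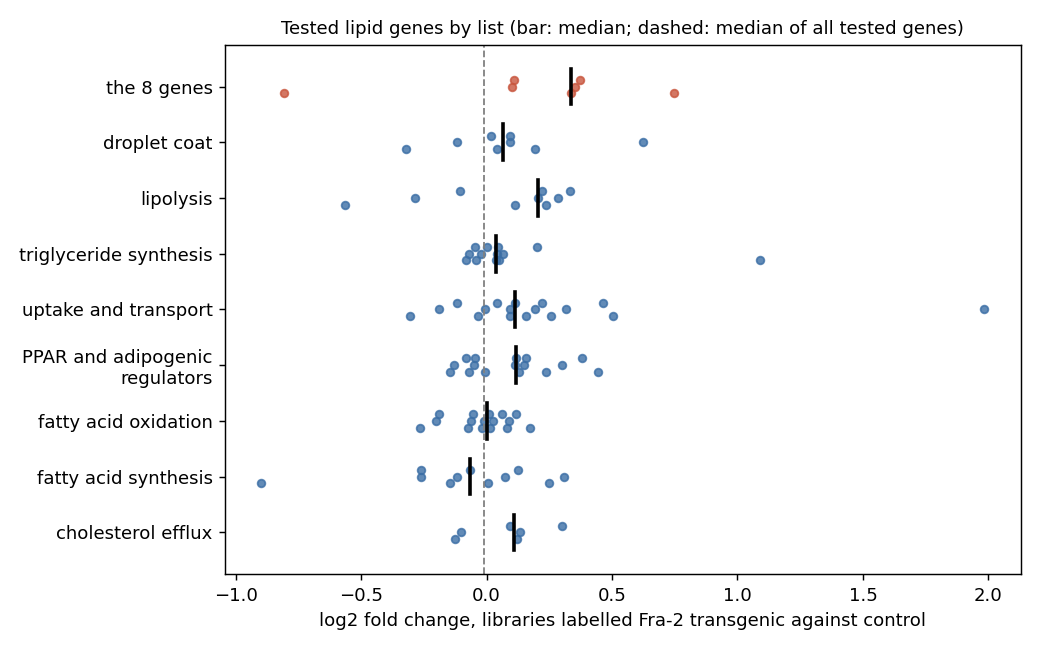
Log2 fold change of each tested gene (points), Fra-2-labelled libraries against control, for the 8 genes (red) and 8 lists of lipid genes (blue), with the median of each list (bar) and of all tested genes (dashed). List medians run from -0.06 in fatty acid synthesis to 0.21 in lipolysis, and the point farthest right is Fabp7 at 1.98.

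Among 19 genes of fatty acid uptake and transport, 17 were tested and 0 passed in edgeR (median log2 fold change 0.11). Fabp7, a binding protein known from glial precursors, had the smallest p of the list at 0.397 ± 0.195 CPM in control and 1.57 ± 0.587 CPM in the Fra-2-labelled libraries (7 to 92 reads, edgeR adjusted p = 0.104), and the groups did not overlap. Slc27a1, a fatty acid transport protein gene, measured 25.4 ± 5.44 and 36.1 ± 4.41 CPM (edgeR adjusted p = 0.224), also without overlap, and the lipoprotein receptor gene Vldlr 67.3 ± 4.45 and 92.8 ± 17.2 CPM (edgeR adjusted p = 0.155). DESeq2, which called 369 of all 15422 tested genes, called Fabp7 (adjusted p = 0.00684) and Vldlr (adjusted p = 0.0472). Vldlr also passed in edgeR without Fra-2 2 (adjusted p = 0.0100). Cav1 (caveolin 1), the most abundant gene of the list, measured 350 ± 81.3 and 306 ± 52.5 CPM (edgeR adjusted p = 0.856). Slc27a1, Vldlr and Fabp7 were named here after their values were seen. Gpihbp1, which holds lipoprotein lipase on capillary endothelium, had 23 to 64 reads per library.

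In lipolysis, beyond Pnpla2, all 9 genes were tested and 0 passed in edgeR (median log2 fold change 0.21). Lipa, the lysosomal acid lipase and the most abundant of them, measured 238 ± 38.6 and 299.98 ± 21.7 CPM (edgeR adjusted p = 0.343). Mgll, the monoglyceride lipase that completes triglyceride breakdown, had a negative log2 fold change, at 131 ± 14.6 and 108 ± 4.55 CPM without overlap (edgeR adjusted p = 0.324), while Abhd5, the activator of adipose triglyceride lipase, measured 77.9 ± 10.03 and 90.9 ± 9.42 CPM (edgeR adjusted p = 0.666) and Lipe, hormone-sensitive lipase, 12.6 ± 1.13 and 14.8 ± 1.62 CPM (edgeR adjusted p = 0.727). Of 13 droplet coat and droplet formation genes other than Plin2, 8 were tested, 0 passed in edgeR and the median was 0.07. Rab18, a droplet-associated GTPase, was the most abundant at 70.9 ± 7.39 and 65.3 ± 12.7 CPM. Plin3, the widely expressed perilipin, measured 19.4 ± 4.54 and 22.1 ± 1.28 CPM, while Plin1 and Plin5, the perilipins of fat cells and of oxidative tissues, and Cidea and Cidec, which enlarge droplets, were not tested for want of reads.

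Triglyceride synthesis, fatty acid oxidation, fatty acid synthesis and cholesterol efflux held no gene past the threshold either (edgeR, 13, 16, 11 and 6 tested, with medians of 0.04, 0.00087, -0.06 and 0.11 on the log2 scale). Lpin3, a phosphatidate phosphatase of triglyceride synthesis, had the smallest p of these lists, at 1.81 ± 0.571 and 3.86 ± 1.65 CPM (edgeR adjusted p = 0.245). The most abundant genes of the lists stayed within the spread of the libraries, with Soat1 (cholesterol esterification) at 82.2 ± 14.6 and 78.4 ± 4.07 CPM and Cpt1a (fatty acid entry into mitochondria) at 262 ± 33.3 and 264 ± 13.1 CPM. Scd2 (a fatty acid desaturase) measured 279 ± 33.3 and 252 ± 15.2 CPM and Npc1 (lysosomal cholesterol export) 135 ± 17.3 and 147 ± 5.11 CPM. Among 17 PPAR and adipogenic regulators, 16 were tested and 0 passed in edgeR (median 0.12). Ppard, the widely expressed relative of Pparg, measured 43.6 ± 3.22 and 53.7 ± 6.52 CPM (edgeR adjusted p = 0.419), and Srebf1, a regulator of lipid synthesis, 17.7 ± 1.29 and 23.0 ± 3.95 CPM (edgeR adjusted p = 0.411), both without overlap between the groups. The corepressor gene Ncor1, the most abundant of the list, measured 395 ± 55.2 and 373 ± 29.8 CPM.

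The members did not rise and fall as 1 group across the libraries. Over the 8 libraries, Pearson's r of log2 CPM among the 21 pairs of tested members ran from -0.78 (Fabp5 and Pnpla2) to 0.80 (Plin2 and Cd36). These are descriptions over libraries that share the group difference and their own depth. For Plin2 and Cd36, Spearman's rho was 0.33, and r was 0.77 once the group means were removed. Without the 2 libraries farthest from the median of Plin2 that pair had an r of 0.15, so its r rests on those libraries. For Limch1 and Pnpla2 r was 0.72 (rho 0.67) and 0.26 once the group means were removed. Without the 2 libraries farthest from the median of Pnpla2 it was 0.77. Pparg and Plin2 had an r of -0.59 (rho -0.52), and of -0.73 once the group means were removed. Their r turned to 0.16 without the 2 libraries farthest from the median of Plin2, so it too rests on those libraries.

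The genes most like a member were found among 9432 tested protein-coding genes (9433 for Pparg) averaging 5 CPM or more, by Pearson's r of log2 CPM over the 8 libraries, given with no test. Being the highest of that many values over only 8 libraries, they are high in part through the choice itself. For Plin2 they were Nlrx1 (r = 0.96), Cln6 (0.96) and Bcl2 (0.95), which fell to 0.70, 0.80 and 0.66 without the 2 libraries farthest from the median of Plin2. For Lpl they were Stk11ip (0.97), Hivep2 (0.95) and Washc2 (0.93). For Pparg, at 9 to 56 reads a sparse gene, they were Myo7a (0.95), Inppl1 (0.95) and Atp2c1 (0.94). Limch1, added after its values were seen, was most like Mamdc2 (0.99), Cxcl12 (0.98) and Sulf2 (0.98), and these values were 0.98, 0.94 and 0.96 without the 2 libraries farthest from the median of Limch1. The chemokine gene Cxcl12 measured 23.8 CPM in control and 42.0 CPM in the Fra-2-labelled libraries (edgeR adjusted p = 0.0615). Fabp4 was left out for want of reads.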

How the data were processed

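RNA was measured in 8 libraries of mouse lung myofibroblasts, 4 per group, with groups and replicate numbers taken from the sample titles. Per the labels' protocols, mRNA was selected from total RNA, cDNA was amplified with the NuGEN Ovation system and libraries were made with Nextera XT, which marks no strand. Amplification can add spread between libraries. The authors deposited raw counts per mouse Ensembl gene (43432 rows and a column for each library). GRCh38, a human build, is the only one in the submitters' processing notes, although the identifiers are mouse. Aligner and counter: not given in the sources used here. Of the identifiers, 42548 matched GENCODE M21 (GRCm38), which gave symbols, starts and exon lengths.

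Counts were analysed in R 4.3.3 with edgeR 4.0.16: filterByExpr (minimum count 10, minimum total 15) kept 15422 genes, libraries were scaled by TMM, and the groups were compared with the robust quasi-likelihood F-test, two-sided, adjusted by Benjamini-Hochberg over all tested genes at 0.05. Each standard error was derived from the fold change and its F statistic, with 95% intervals. Log2 CPM used a prior count of 2. Chi-square per gene between libraries within a group was 36.0 to 155, so all 8 were kept as separate samples. The fit was tested on simulated counts.

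The members and the gene lists were chosen with earlier results of these data known. The text names all 8 members, the called genes and the most abundant gene of each pathway list, and the most abundant gene of each marker list. Other genes were named after their values were seen. Alternatives were other scalings and filters, DESeq2 1.42.0, limma-voom (limma 3.58.1), no robust dispersion, a replicate block, sex as a covariate, leaving out the 20 most abundant genes, each library in turn, or control 1 and control 2 together. A transcript length for the levels per kb was added after seeing the data. Fabp4 reads were too few for a test.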

Additional observations from a re-analysis of the deposited data

Results flagged for a closer look

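Of the 16 combinations of a member and a group, 1 held a sample far from the others. Cd36 in Fra-2 4 measured 13.9 CPM, where the other 3 Fra-2-labelled libraries measured 7.28 to 8.15 CPM (gap to the nearest library above Dixon's 95% critical value for 4 samples). Chance flags about 1 in 20 such groups. The same library had the highest summed alveolar epithelial markers of the 8 (217 CPM), and their part in the value was not tested.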

How the results depend on the processing

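The 20 alternatives gave 138 values for the 7 tested members, of which 132 kept both the direction and the side of the threshold. Limch1 passed in 3 of them, with a log2 fold change of 0.75 by DESeq2, 0.74 with total-count scaling and 0.75 with the replicate block (adjusted p = 0.00315, 0.0441 and 0.00600). Without control 1 and control 2 together it was 0.50 (edgeR adjusted p = 0.458). The direction of Plin2 turned without control 1 (-0.0066) and without control 1 and control 2 together (-0.0099), and that of Pparg without Fra-2 1 (-0.17); leaving out 1 library at a time, Plin2 ran from -0.0066 to 0.19 and Pparg from -0.17 to 0.86. The cause was not tested. Fosl2 kept its direction and did not pass in any of the 20. Of the 160 counts of called genes in the pathway lists, 158 stayed at 0, and uptake and transport had 2 by DESeq2 and 1 without Fra-2 2. Over all genes, 157 calls became 369 by DESeq2 and 43 without control 1 and control 2 together, and ran from 76 to 205 without 1 library at a time (leaving out control 2 gave 76, control 3 gave 90, Fra-2 1 gave 76 and Fra-2 3 gave 81).

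The labels do not say that equal replicate numbers mark a shared litter or day. Deviations of same-numbered libraries from their group means had correlations of 0.0018, 0.22, 0.080 and 0.31 for numbers 1 to 4. The own number was the highest for 3 of the 4 controls. With 4 such values it cannot be decided whether the numbers mark a pairing. The replicate block raised the calls from 157 to 190. With the length of the longest principal transcript, chosen after seeing the data, the control levels became 16.03 for Plin2, 13.9 for Pnpla2, 13.0 for Limch1, 8.63 for Lpl, 2.19 for Cd36, 1.15 for Fabp5, 0.359 for Pparg and 0.185 CPM per kb for Fabp4. The order was the same, but the control ranges of Limch1 (9.14 to 15.6) and Lpl (7.87 to 9.58) then overlapped. Pparg and Fabp5, the tested members with the fewest reads, had the widest 95% intervals, and Fabp4 had too few reads for a test.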
